A study of Mus musculus with 5 samples.

Results

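The genes described here are 41 genes of lipid synthesis, chosen by name as enzymes, carriers and regulators of fatty acid, triglyceride and cholesterol synthesis, and followed in mammary epithelial cells of 4-week-old mice with and without Cre-mediated targeting of Mmp14, which encodes a membrane-anchored matrix metalloproteinase. The arrays hold at least 1 probe set annotated to that gene alone for 39 of the 41, and 1 was kept per gene, out of 22180 genes measured in all. Scd2 and Idi1 are represented only by probe sets that carry a second gene symbol and were left out. Of the 39, 20 belong to fatty acid and triglyceride synthesis, 14 to cholesterol synthesis and 5 are the sterol-sensing regulators that serve both.

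The study compared 2 knockout arrays with 3 wild-type arrays, all from mice of a congenic FVB/NJ background. The knockout mice, MMTV-Cre+/Mmp14(f/f), carried Cre recombinase under the mouse mammary tumour virus promoter, which is active in mammary epithelium, together with floxed Mmp14 alleles. The wild-type mice, Mmp14(f/f), were littermates with the same floxed alleles and no Cre, so effects of Cre itself and of losing Mmp14 cannot be told apart. Inguinal glands free of lymph node were digested with collagenase and put through differential centrifugation meant to remove stromal cells. Fibroblast genes were nevertheless bright, as given below. For each array 10 ng of total RNA was converted to biotinylated cDNA. Values are log2 signals as deposited, means are given ± SD with n = 2 knockout and n = 3 wild-type arrays, and differences are knockout minus wild type ± the moderated SE of limma, a linear-model test fitted over all 22180 genes. The labels call the arrays biological replicates without saying whether each is 1 mouse or a pool, and the p-values rest on the spread of these 5 arrays alone.

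Fatty acids are built in the cytosol from acetyl-CoA, lengthened and desaturated in the endoplasmic reticulum, and esterified to glycerol as triglyceride, which milk-secreting cells of the mammary gland package into droplets. Cholesterol is made from the same acetyl-CoA through mevalonate, farnesyl pyrophosphate and squalene. Both routes are controlled by the SREBP transcription factors, which SCAP escorts to the Golgi for activation when sterols are low and which INSIG proteins hold back in the endoplasmic reticulum when sterols are plentiful. Mature SREBP binds sterol regulatory elements in promoters, usually beside sites for NF-Y, which recognises the CCAAT box, and Sp1, which recognises the GC box.

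Promoter sequences are shown for Hmgcs1, Nsdhl and Srebf2, which each read lower on wild type 3 and knockout 2 than on the other arrays. For Nsdhl, wild type 3 was close to knockout 1, at 6.898 against 6.918. Sequences are also shown for Mvd, lower in both knockouts, and for Insig1, a sensor of sterols. RefSeq promoters of GRCm38.p6, reaching from 250 bases before to 50 bases after a start site, were matched by symbol for 31 of the 41 genes. Each was searched on both strands, overlapping matches included, for 4 motifs. The sterol regulatory element was written TCACNCCAC. The E-box, which SREBP can also bind, was written CACGTG, a palindrome counted once. The CCAAT box was searched by the letters of its name. The GC box was written GGGCGG. A gene with several listed start sites was counted when any of its promoters held the motif. The 180 bases upstream of the start site are printed below for 5 members, with matches to the first 3 of these motifs in capitals.
Hmgcs1, chr13:119690171-119690350, plus strand: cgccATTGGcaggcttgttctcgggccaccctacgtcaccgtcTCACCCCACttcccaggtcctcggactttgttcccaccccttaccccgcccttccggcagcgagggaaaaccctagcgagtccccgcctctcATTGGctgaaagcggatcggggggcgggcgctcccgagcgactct
Mvd, chr8:122443423-122443602, minus strand: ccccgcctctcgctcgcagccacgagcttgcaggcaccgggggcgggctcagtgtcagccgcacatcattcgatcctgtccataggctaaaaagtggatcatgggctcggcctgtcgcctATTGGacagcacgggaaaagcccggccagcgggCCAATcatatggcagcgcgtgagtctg
Nsdhl, chrX:72918341-72918520, plus strand: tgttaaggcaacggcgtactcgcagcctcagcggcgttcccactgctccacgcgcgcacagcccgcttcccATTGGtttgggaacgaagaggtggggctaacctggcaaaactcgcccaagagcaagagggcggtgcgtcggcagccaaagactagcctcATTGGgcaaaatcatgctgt
Insig1, chr5:28071232-28071411, plus strand: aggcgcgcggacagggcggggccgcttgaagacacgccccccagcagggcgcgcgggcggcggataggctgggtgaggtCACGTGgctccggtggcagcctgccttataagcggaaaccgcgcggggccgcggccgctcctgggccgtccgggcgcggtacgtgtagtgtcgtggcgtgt
Srebf2, chr15:82147089-82147268, plus strand: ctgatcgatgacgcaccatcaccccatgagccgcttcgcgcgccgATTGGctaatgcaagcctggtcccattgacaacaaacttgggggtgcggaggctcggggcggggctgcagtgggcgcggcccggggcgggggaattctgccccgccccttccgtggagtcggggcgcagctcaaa

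In the Hmgcs1 stretch the sterol regulatory element begins at position -137 from the start site, between CCAAT boxes at -176 and -45 that read ATTGG on this strand. It was the only member of the 31 with that element as written, 3.23%, against 1.44% of the 27025 genes in the promoter table. The Mvd and Nsdhl stretches each held 2 CCAAT boxes, that of Srebf2 held 1, and the Insig1 stretch held an E-box at -101, its CCAAT box lying farther upstream at -216. All 11 cholesterol synthesis genes with a promoter in the table held a CCAAT box and 10 of the 11 held a GC box, against 41.1% and 38.2% of all genes in the table. The 11 include Idi1, whose signal was left out. They do not include Fdps, Fdft1, Sqle and Stard4, which had no promoter in the table. Among the 15 fatty acid and triglyceride genes, 10 held a CCAAT box and 8 a GC box. These matches describe the letters in these windows and were not tested further.

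All 13 luminal markers of the labelled epithelium lay above the median signal of all genes, 4.42. Krt8, a luminal keratin, lay between 11.34 and 11.48 on the 5 arrays and Epcam, an epithelial adhesion protein, between 9.98 and 10.10, while Elf5, a transcription factor of luminal progenitors, lay between 5.03 and 5.42. Stromal genes were bright as well. The 9 fibroblast genes averaged 8.41 to 9.08 on the wild-type arrays and 8.81 and 8.97 on the knockout arrays. Col1a2, a fibroblast collagen gene, lay between 10.51 and 10.87, and Pecam1, an endothelial gene, between 7.64 and 8.80. The share of stromal RNA in these samples was not tested. Since adipocytes also make fatty acids and triglycerides, a list of adipocyte genes was read beside the members. Of its 19 measured genes, 0 passed limma's test and 8 had a higher mean in the knockout. The list's mean signal was 5.35 to 5.44 on the wild-type arrays and 5.33 and 5.48 on the knockout arrays. Of the 19, 7 lay below the median signal of all genes in their mean. Adipoq, an adipocyte hormone, lay between 4.54 and 4.77, and the droplet protein genes Plin1 and Cidec lay between 4.07 and 4.10 and between 3.39 and 3.57. Pparg, the master regulator of adipocytes, lay above that median, between 5.62 and 6.36, as did the lipases Lipe, between 5.51 and 5.97, and Pnpla2, between 7.07 and 7.59. Cd36, a fatty acid transporter found in many cell types, lay between 7.72 and 8.37. Fabp4, a fatty acid carrier that endothelial cells also express, was bright, between 10.53 and 11.35. No value on these arrays is at 0. In bulk RNA, fewer cells of a type and less RNA per cell cannot be told apart. Mmp14 itself was 8.19 ± 0.47 in the wild type and 7.63 ± 0.50 in the knockout with overlapping groups (limma adjusted p = 0.919), so it does not check the genotype labels, and where its probes lie relative to the deleted part is unknown here. Going by the array numbers of the labels, wild type 1, wild type 2 and knockout 1 form a first consecutive series, called run 1 here, and wild type 3 and knockout 2 form another, called run 2. The labels do not say what such a series stands for. Mmp14 read 8.155 and 8.674 in the wild type against 7.985 in the knockout in run 1. In run 2 it read 7.746 against 7.283, so each knockout array lay below the wild-type arrays of its own run.

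No member passed the test between the genotypes. Of the 39, 0 passed limma's test at an adjusted p of 0.05, against 0.0% of all genes, with adjusted p-values of 0.919 or more. Dgat1 and Mvd, 2 members, had an unadjusted p under 0.05, against 1.3% of all genes. Those 2 were also the members whose knockout arrays both lay below every wild-type array, a pattern that 2.8% of all genes showed. No member had both knockout arrays above every wild-type array, against 2.63% of all genes. A higher mean in the knockout was seen for 20 members and a lower mean for 19, against 46.3% and 49.5% of all genes. The largest difference in either direction was 1.30-fold, for Fdps, so 0 members reached 1.5-fold, as 0.365% of all genes did. The median SE of a member's difference was 0.107, against 0.0699 over all genes.

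**Figure D1:**
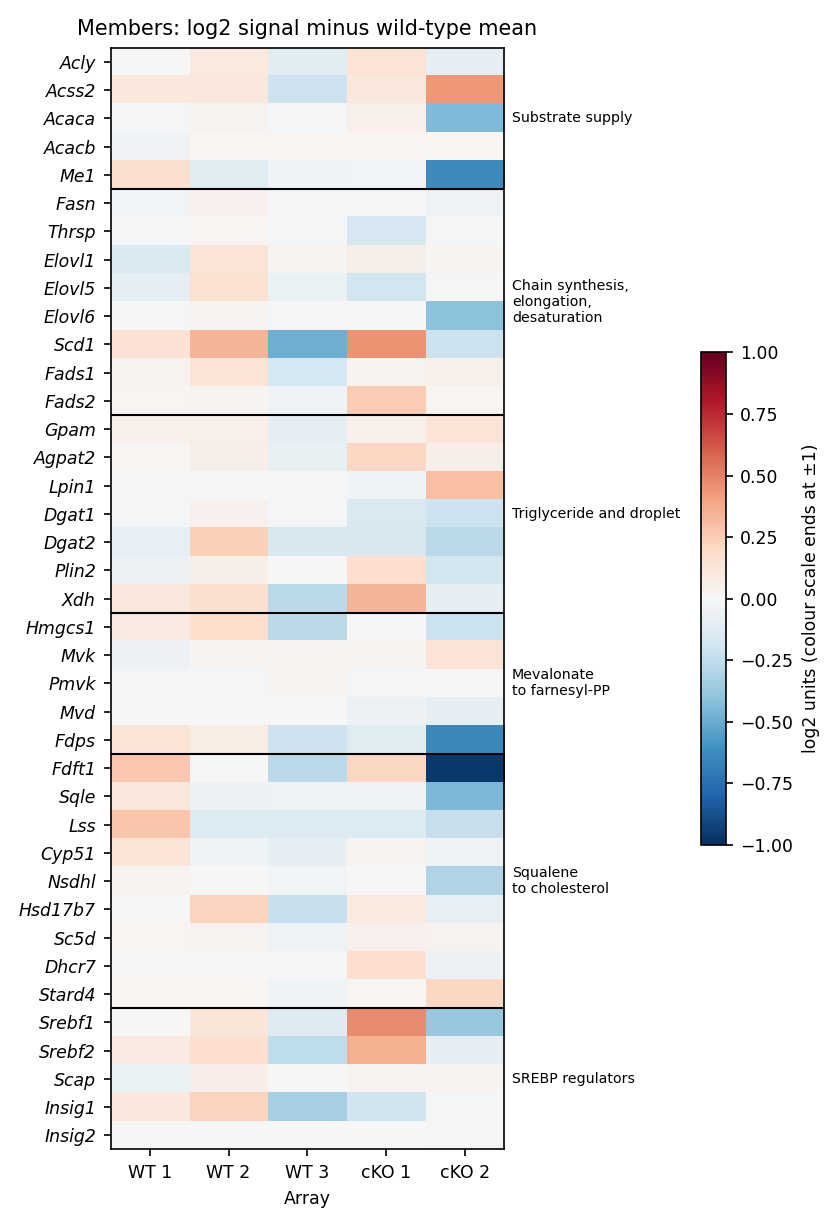
Log2 signal of each of the 39 measured members (rows, grouped by role) on each array (columns), shown as the difference from that gene's mean over the 3 wild-type arrays. Colours run from blue (lower) to red (higher). Blue cells gather on knockout 2 and on wild type 3, while the knockout 1 column shows no such block of blue. On knockout 2, 7 of 14 cholesterol genes had their lowest value, against 22.5% of all genes.

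The medians of the 2 pathways lay within 0.05 of that of all genes, but that of cholesterol synthesis was lower among genes with 5 different values, chiefly in run 2. The 20 fatty acid and triglyceride genes had a median difference of 0.019, with 11 higher and 9 lower in the mean. The 14 cholesterol genes had a median difference of -0.045, with 5 higher and 9 lower. The median over all genes was 0.00. Among the genes without tied values the median of the 6 cholesterol genes was -0.20, against -0.006 over all 6930 such genes. Within run 1 the cholesterol median was -0.013 and within run 2 it was -0.048, the latter from 1 array per genotype. Without knockout 2 the cholesterol median was 0.012, and without knockout 1 it was -0.086. The 2 knockout arrays were unlike each other. Knockout 2 lay below knockout 1 for 26 of the 39 members and 11 of the 14 cholesterol genes, against 38.4% of all genes. Knockout 1 was the highest of the 5 arrays for 11 members, against 17.0% of all genes, and knockout 2 for 6, against 21.4%.

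Among the genes that supply substrate, the largest difference was that of Me1, the malic enzyme that makes NADPH for chain synthesis. Me1 read 8.01, 7.74 and 7.82 on the wild-type arrays, and 7.83 and 7.22 on the knockout arrays. Knockout 1 lay among the wild-type arrays and knockout 2 lay 0.52 below the lowest of them, and the difference of -0.33 ± 0.22 became -0.03 without knockout 2. Acaca, the cytosolic acetyl-CoA carboxylase that makes malonyl-CoA for chain synthesis, had the same shape. It read 5.72, 5.76 and 5.72 in the wild type against 5.78 and 5.29 in the knockout, so that knockout 1 was the highest array and knockout 2 the lowest.

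Acss2, which makes acetyl-CoA from acetate, leaned the other way. It read 4.58 on wild type 1, wild type 2 and knockout 1 alike, 4.26 on wild type 3 and 4.90 on knockout 2, a difference of 0.27 ± 0.16. The difference was 0.00 within run 1 and 0.64 within run 2. Acacb, the mitochondrial acetyl-CoA carboxylase that restrains fatty acid oxidation, was dim, at 3.27 on wild type 1 and 3.32 on the other 4 arrays. Acly, which makes cytosolic acetyl-CoA from citrate, ranged from 6.77 on wild type 3 to 7.01 on knockout 1, with nearly equal group means (0.019 ± 0.10).

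The fatty acid synthase itself was flat. Fasn read 6.79, 6.86 and 6.79 in the wild type and 6.79 and 6.78 in the knockout, a whole range of 0.082 over the 5 arrays, against a median range of 0.327 over the 20 fatty acid and triglyceride genes and of 0.214 over all genes. Thrsp, a nuclear protein that promotes lipogenesis and is abundant in fat, was dim, at 3.68, 3.71 and 3.68 in the wild type and 3.52 and 3.68 in the knockout. Neither gene separated the genotypes.

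The elongases and desaturases overlapped between the genotypes. Scd1, the desaturase that makes oleate, had the widest range of the fatty acid genes. It read 7.25, 7.44 and 6.61 on the wild-type arrays and 7.55 and 6.89 on the knockout arrays. Both genotypes therefore held a high and a low array, and the low arrays were wild type 3 and knockout 2, the 2 arrays of run 2. The group means were 7.10 ± 0.43 and 7.22 ± 0.47 (difference 0.12 ± 0.36). The difference was 0.20 within run 1 and 0.28 within run 2.

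Elovl6, which elongates palmitate to stearate, read 5.20, 5.23 and 5.20 in the wild type, 5.21 in knockout 1 and 4.80 in knockout 2. Fads2, the delta-6 desaturase of polyunsaturated fatty acids, was instead highest on knockout 1, at 7.32, with 7.08 on knockout 2 and 7.02 to 7.09 in the wild type. Elovl1, Elovl5 and Fads1, which handle very long and polyunsaturated chains, ranged by 0.28 to 0.34 over the 5 arrays and differed by -0.09 to 0.04 between the genotypes. In each of these genes the groups overlapped.

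In triglyceride assembly, Dgat1 was the gene without overlap between the genotypes. Dgat1 and Dgat2 are unrelated enzymes that each add the last fatty acid to diacylglycerol. Dgat1 read 7.34, 7.40 and 7.34 on the wild-type arrays and 7.21 and 7.16 on the knockout arrays. Both knockout arrays lay below all wild-type arrays, and the difference was -0.18 ± 0.03, or 1.13-fold (limma unadjusted p = 0.00549, adjusted p = 0.919). It was -0.17 within run 1 and -0.19 within run 2. The difference ranged from -0.21 to -0.15 when 1 array was left out, and no such fit called it. Wild type 1 and wild type 3 had the same value to 6 decimals, so the SE rests on fewer distinct values.

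**Figure D2:**
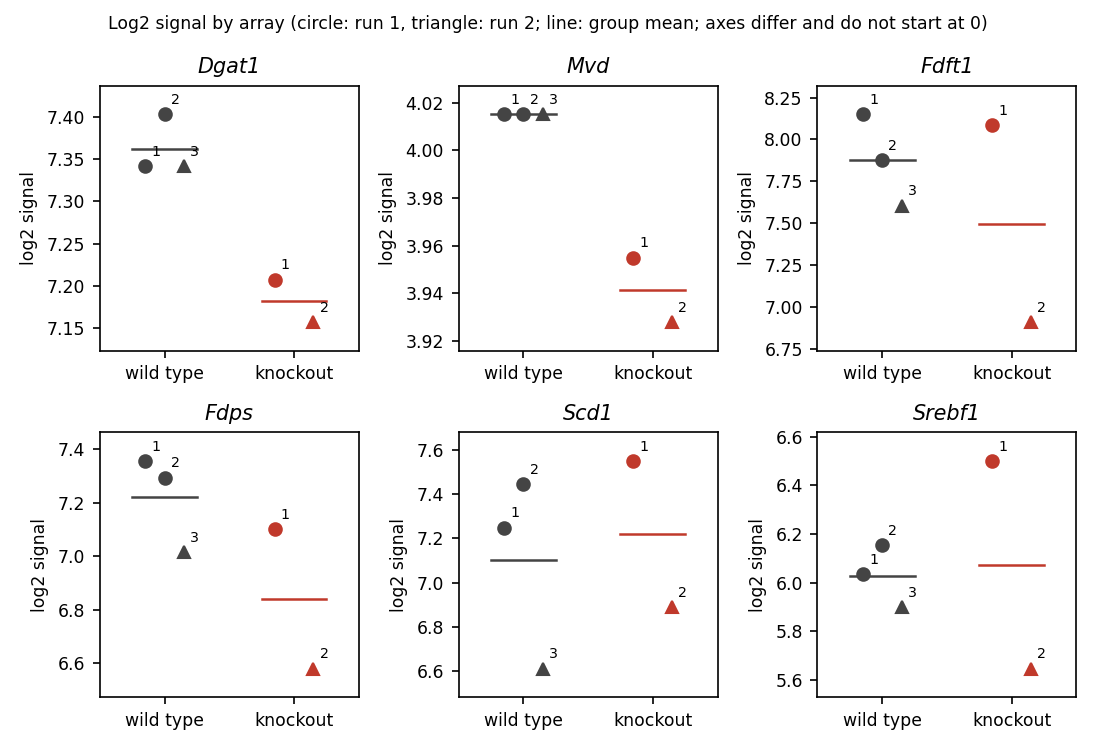
Log2 signal of 6 members on each array, wild type in grey and knockout in red, with circles for run 1, triangles for run 2, replicate numbers beside the points and lines for group means. Dgat1 and Mvd show no overlap between genotypes but small differences, while Fdft1, Fdps, Scd1 and Srebf1 have their lowest arrays in run 2.

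Dgat2 was lower in the mean as well, but not separated. It read 5.11, 5.43 and 5.03 in the wild type and 5.03 and 4.92 in the knockout, and wild type 3 and knockout 1 had equal values (difference -0.21 ± 0.15). The acyltransferases of the earlier steps had higher means. Gpam, the mitochondrial enzyme that adds the first acyl chain to glycerol phosphate, read 4.76, 4.76 and 4.61 against 4.76 and 4.84 (difference 0.09 ± 0.06). Agpat2, which adds the second chain, read 6.10, 6.15 and 6.01 against 6.29 and 6.15 (difference 0.13 ± 0.07), with knockout 1 the highest array.

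Lpin1, the phosphatidate phosphatase that makes diacylglycerol, stood at 5.40 on knockout 2 and at 5.06 to 5.10 on the other 4 arrays. The droplet coat protein gene Plin2 was highest on knockout 1, at 7.82, and lowest on knockout 2, at 7.47. Xdh, whose product helps envelop milk fat droplets, read 7.09 on knockout 1 and 6.66 on knockout 2, with 6.48 to 6.91 in the wild type. For these 3 genes the 2 knockout arrays lay on opposite sides of the wild-type mean. Within the runs defined above, Xdh was higher in the knockout both times, by 0.205 in run 1 and 0.18 in run 2. Plin2 differed by 0.17 and -0.185 and Lpin1 by -0.04 and 0.316, so their directions were opposite.

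In the first part of cholesterol synthesis, Mvd was the gene without overlap. It encodes the decarboxylase that makes isopentenyl pyrophosphate. Mvd read 4.01 on all 3 wild-type arrays, equal to 6 decimals, and 3.96 and 3.93 on the knockout arrays, a difference of -0.074 ± 0.015 (limma unadjusted p = 0.0101, adjusted p = 0.919). The signal lay below the median gene, where low signal and background cannot be told apart, and with tied wild-type values the SE rests on the knockout arrays and on limma's moderation.

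Fdps, the synthase of farnesyl pyrophosphate, had the largest difference of any member. It read 7.36, 7.29 and 7.01 on the wild-type arrays and 7.10 and 6.58 on the knockout arrays, with means of 7.22 ± 0.18 and 6.84 ± 0.37 (difference -0.38 ± 0.21). Knockout 1 lay above wild type 3, so the groups overlapped, and the difference was -0.22 within run 1 and -0.44 within run 2. It was -0.12 without knockout 2 and -0.64 without knockout 1.

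Hmgcs1, the cytosolic synthase that makes HMG-CoA, read 8.00, 8.08 and 7.64 in the wild type and 7.91 and 7.69 in the knockout. The high arrays were again those of run 1, in both genotypes. The kinases of the mevalonate route differed little. Mvk read 4.41, 4.51 and 4.51 against 4.51 and 4.61, and Pmvk read 6.02, 6.02 and 6.06 against 6.02 on both knockout arrays.

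From squalene onward, the gene that varied most over the arrays was Fdft1, squalene synthase, which commits farnesyl pyrophosphate to sterols. It read 8.15, 7.88 and 7.60 on the wild-type arrays and 8.08 and 6.91 on the knockout arrays, a range of 1.24 log2 units. Knockout 1 lay near the top of the wild type and knockout 2 lay 0.69 below its lowest array, giving a difference of -0.38 ± 0.43. The difference was 0.07 within run 1 and -0.69 within run 2. It was 0.21 without knockout 2, so its direction rested on that array.

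Sqle, the squalene epoxidase, and Nsdhl, a sterol dehydrogenase, were also lowest on knockout 2. Sqle read 8.19, 8.02 and 8.03 against 8.04 and 7.63 (difference -0.24 ± 0.15). Nsdhl read 6.96, 6.92 and 6.90 against 6.92 and 6.63 (difference -0.15 ± 0.10). In both, knockout 1 lay within the wild-type range, and without knockout 2 the differences were -0.04 for Sqle and -0.007 for Nsdhl.

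The remaining sterol genes showed no common direction. Stard4, a cholesterol carrier, read 4.36, 4.36 and 4.29 in the wild type and 4.36 and 4.54 in the knockout (difference 0.11 ± 0.07). Sc5d, a sterol desaturase, read 7.43, 7.44 and 7.36 against 7.45 and 7.44. Lss, Cyp51, Hsd17b7 and Dhcr7, which act between squalene epoxide and cholesterol, differed by -0.18 to 0.06, with SEs of 0.075 to 0.16. Lss was dim, between 3.38 and 3.88. All 9 genes of this stretch had their lowest value on wild type 3 or knockout 2, against 37.8% of all genes. For Sc5d the whole range over the arrays was only 0.097.

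**Figure D3:**
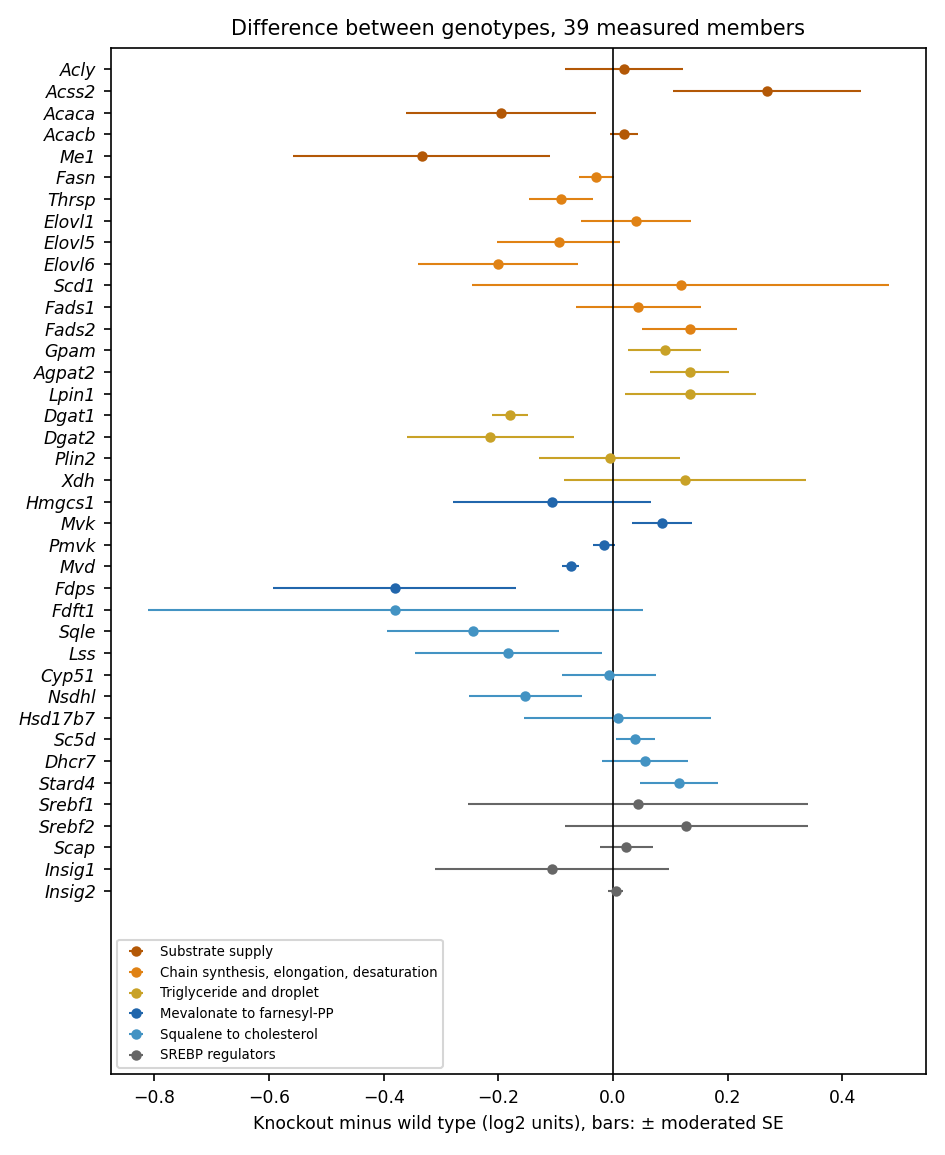
Knockout minus wild type for the 39 measured members in log2 units, coloured by role, with bars of ± the moderated SE of limma. None passed the test after adjustment, and the 2 members with unadjusted p under 0.05, Dgat1 and Mvd, have short bars and small differences.

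Of the SREBP regulators, Srebf1 set the knockout arrays farthest apart. Srebf1, which drives fatty acid genes, read 6.04, 6.15 and 5.90 on the wild-type arrays, 6.50 on knockout 1 and 5.65 on knockout 2. The knockout arrays were thus the highest and the lowest of the 5, and the group means were 6.03 ± 0.13 and 6.07 ± 0.60. Srebf2, which drives cholesterol genes, read 7.37, 7.44 and 7.02 against 7.63 and 7.18, with both arrays of run 2 below the others. The difference was 0.22 within run 1 and 0.16 within run 2 for Srebf2, and 0.41 and -0.25 for Srebf1.

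Scap and Insig2 hardly varied. Scap read 6.94, 7.08 and 7.00 in the wild type and 7.03 on both knockout arrays, and Insig2 read 6.03 on 4 arrays and 6.04 on knockout 2. Insig1, itself an SREBP target and the more sterol-responsive of the INSIG genes, read 6.60, 6.72 and 6.16 against 6.29 and 6.48, so that the lowest array was wild type 3. None of the 5 regulators separated the genotypes.

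More members were separated by the array run than by the genotype, and the same held over all genes. By genotype, 2.8% of all genes were lower and 2.63% higher in the knockout without overlap. Both arrays of run 2 lay below all 3 arrays of run 1 for 10 of the 39 members, against 9.82% of all genes, and above them for 0, against 8.57%. These 10 were Acly, Scd1, Xdh, Hmgcs1, Fdps, Fdft1, Nsdhl, Hsd17b7, Srebf1 and Srebf2. All 10 are among the 15 members with 5 different values. Of all genes with 5 different values, 23.6% had run 2 below run 1 and 18.2% had it above. Of those 15 members, 0 had both knockout arrays below the wild type, against 5.7% of such genes, and 7 were lowest on knockout 2, against 27.8%. The lowest array was wild type 3 or knockout 2 for 30 of the 39 members, against 37.8% of all genes. It was wild type 3 for 15 of them, against 15.3%, and knockout 2 for the other 15, against 22.5%. The run 2 mean was below the run 1 mean for 29 of 39, against 46.2% of all genes, and the median of these differences was -0.11 over the members and 0.00 over all genes.

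With the run and the genotype in the same fit, run 2 was lower by 0.70 ± 0.08 for Scd1, by 0.41 ± 0.024 for Xdh and by 0.41 ± 0.04 for Srebf2. None of the members, and 0.0% of all genes, had an adjusted p under 0.05 for the run by limma. At an unadjusted p under 0.05 there were 7 members, against 8.42% of all genes. Run 2 holds only 2 arrays, 1 per genotype.

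**Figure D4:**
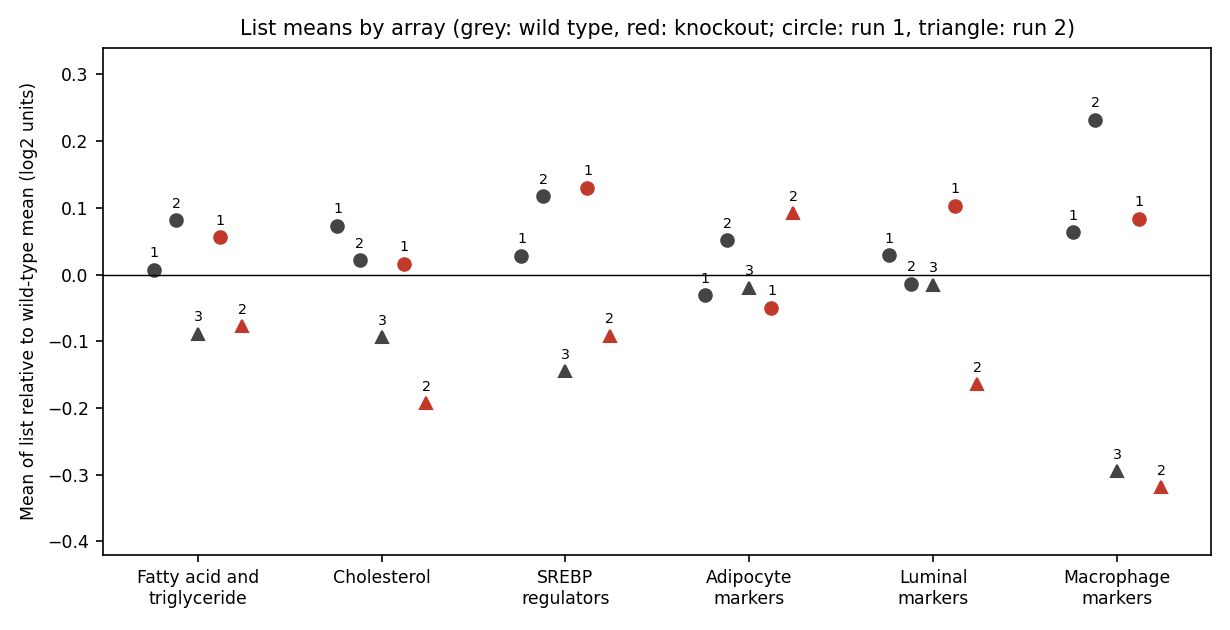
Mean log2 signal of each gene list relative to its wild-type mean, for each array, with wild type in grey, knockout in red, circles for run 1, triangles for run 2 and replicate numbers above the points. In all 3 lipid lists the triangles of both genotypes lie below the circles, as they do for the macrophage and luminal markers, narrowly so for the luminal list on wild type 3, while the adipocyte markers do not show that order.

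Cell markers moved with these arrays to different degrees. Relative to the wild-type mean, the fatty acid and triglyceride list stood at -0.09 on wild type 3 and -0.08 on knockout 2, the cholesterol list at -0.09 and -0.19, and the regulators at -0.14 and -0.09. The 19 adipocyte genes stood at -0.020 and 0.09, the 13 luminal genes at -0.015 and -0.16 and the 7 macrophage genes at -0.29 and -0.32. Of the luminal genes 8 had their lowest value on knockout 2, as did 7 of the 14 cholesterol genes and 7 of the 20 fatty acid and triglyceride genes, against 22.5% of all genes. The luminal list's mean signal was 8.56 to 8.61 in the wild type and 8.68 and 8.41 on the knockout arrays, and the macrophage list's was 5.44 to 5.97 against 5.82 and 5.42. The 11 milk and alveolar genes, such as those of caseins, stood at 0.49, -0.48 and -0.009 on the wild-type arrays and at -0.81 and -1.76 on the knockout arrays. A few genes carried these means, and the medians over the list were -0.36 and -0.85 on the knockout arrays. Glycam1, a mucin-like milk protein gene, read 10.71, 10.74 and 8.10 in the wild type against 4.24 and 4.76. The casein gene Csn2 followed another order over the arrays, at 7.69, 3.70 and 7.06 against 4.59 and 2.90. Aldh1a3, a retinal dehydrogenase gene of luminal cells, read 9.72 to 9.79 against 9.87 and 9.57. All 11 had a lower mean in the knockout, 8 were lowest on knockout 2 and 0 passed limma's test. The 7 endothelial genes were all lowest on knockout 1, against 17.6% of all genes, and their list stood at -0.51 there and at 0.24 on knockout 2. Of the 9 fibroblast genes 8 had a higher mean in the knockout, with a median difference of 0.17, and all 6 lymphocyte genes had a lower one, with a median of -0.19. None of these lists held a gene that passed limma's test. The part of these cells in the members' values was not tested.

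No further gene of either pathway passed the test. Of 35 further fatty acid and triglyceride genes, 15 had a higher and 17 a lower mean in the knockout, 3 were equal, and 0 passed limma's test, with 1 at an unadjusted p under 0.05. Oxsm, the mitochondrial ketoacyl synthase, read 3.47, 3.47 and 3.45 in the wild type and 3.56 and 3.58 in the knockout. Btn1a1, butyrophilin of the milk fat globule and also 1 of the 11 milk genes, read 6.31, 5.90 and 6.39 against 5.78 and 5.51 (difference -0.55 ± 0.20). Agpat1, another enzyme that makes phosphatidic acid, read 6.48, 6.54 and 6.49 against 6.54 and 6.71 (difference 0.12 ± 0.06). Oxsm was dim, with both knockout arrays above the wild type, and Btn1a1 was 1.47-fold lower with no overlap, a larger difference than that of any member. Each was the 1 gene of the 35 without overlap in its direction, against 2.63% of all genes higher and 2.8% lower. The median run 2 minus run 1 was -0.03 over the 35, against -0.11 over the 20 members of that pathway. Of the 35, 18 were lowest in run 2, against 15 of the 20 and 37.8% of all genes.

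Of 19 further cholesterol genes, 5 had a higher and 12 a lower mean, 2 were equal, and 0 passed, with 0 at an unadjusted p under 0.05. Ggps1, which makes geranylgeranyl pyrophosphate, read 6.84, 7.04 and 6.72 against 6.77 and 6.48. Ebp, a sterol isomerase, read 5.31, 5.31 and 5.40 against 5.30 and 5.17, and Tmem97, a sterol-responsive membrane protein, read 5.87, 5.85 and 5.85 against 5.85 and 5.75 (difference -0.06 ± 0.04). Ebp was the 1 gene of the 19 with both knockout arrays below the wild type, against 2.8% of all genes. In 0 of them did both lie above it, against 2.63%. For 10 of the 19, knockout 2 was the lowest array, against 22.5% of all genes. Their median difference was -0.03, next to the -0.045 of the 14 members.

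Leaving out 1 knockout array produced calls among the members, with the remaining knockout array assumed to vary like the wild type. Without knockout 1, 5 members passed limma's test, against 7.92% of all genes. They were Acaca, Elovl6 and Mvd, lower on knockout 2, Dhcr7, lower by 0.055, and Lpin1, higher by 0.30. Without knockout 2, 1 member passed, Dhcr7, higher by 0.17, against 3.76% of all genes. All 5 genes had tied values on the wild-type arrays, and Dhcr7 was called in opposite directions.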

How the data were processed

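The deposited table holds log2 signals for 41345 probe sets on 5 arrays. Per the submitters' processing notes, the authors used RMA and limma (no version there), and neither the library files nor the array model could be taken from the labels. The platform annotation gives 1 symbol for 23521 probe sets, several for 1814 and none for 16010. Probe sets with 1 symbol were kept, 1 per gene by the highest mean over the 5 arrays, leaving 22180 genes. The number of arrays limits the precision, and no detection calls were used.

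Knockout was compared with wild type in R 4.3.3 with limma 3.58.1 (two-sided lmFit and eBayes fit on genotype alone, Benjamini-Hochberg over all genes, threshold 0.05). The procedure was also run on simulated data. These held neither tied values nor a difference between runs, so they do not show how the test behaves with those features. The members, lists and tests were chosen with earlier results of these data known. Full values are given for members without overlap between groups, the 4 per role with the largest moderated t, the 6 with the widest range and 9 fixed members, of which Idi1 was left out; of other pathway genes, the 3 per list with the largest t. Other members and markers named were chosen after their values were seen. Of the 39 members 24 had a value shared by at least 2 arrays to 6 decimals. Alternatives were quantile normalisation, median centring, dropping genes under the 40th percentile, averaging probe sets, an intensity trend, array weights, the run as a block, a replicate block and leaving out each array. The test of the run and the restriction to genes with 5 different values were added after seeing the data.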

Additional observations from a re-analysis of the deposited data

How the results depend on the processing

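The count of called members stayed at 0 in all alternatives with a test, except without knockout 1 (3 fatty acid and triglyceride genes and 2 cholesterol genes) and without knockout 2 (1 cholesterol gene). Leaving out 1 array gave 0 to 3 and 0 to 2 called members in the 2 pathways and 0 to 1757 called genes overall (1757 without knockout 1, 835 without knockout 2). The median difference then ranged from -0.037 to 0.048 for fatty acid and triglyceride genes and from -0.090 to 0.012 for cholesterol genes, lowest without wild type 3 in both. With the replicate number as a block, which uses the 4 arrays numbered 1 and 2, the medians were -0.037 and -0.090 and no gene was called. The labels do not say that the numbers pair the samples, and they were not taken to do so. Deviations of same-numbered arrays correlated at 0.245 and -0.044 across genes, and those of knockout 2 and wild type 3 at 0.261. Such values cannot decide on pairing, since with 2 knockout arrays the deviations of 1 mirror those of the other. Among genes with 5 different values the cholesterol median was -0.198 over 6 genes, at -0.044 within run 1 and -0.333 within run 2. Of 19 members whose difference exceeded its SE, 3 turned sign: Acaca (0.044 in run 1 alone, -0.441 to 0.052 leaving out an array), Elovl6 (0.001, -0.409 to 0.007) and Lpin1 (-0.040, -0.034 to 0.304). Of the 20 within their SE, 17 turned in at least 1 alternative.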
